A study of Mus musculus with 4 samples.

Results

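Ribosomal protein genes encode the proteins that assemble with ribosomal RNA into the small and large subunits of the cytoplasmic ribosome. The members were chosen by symbol: protein-coding genes named *Rpl* or *Rps* followed by a number, *Rplp0*, *Rplp1* and *Rplp2* of the ribosomal stalk and *Rpsa*, with paralogues of the "-like" kind included and pseudogenes and the kinases named *Rps6k* left out. The rule gave 84 of the 52636 genes in the files, 32 for the small subunit and 52 for the large subunit, and it used no measured value. *Rps3a2*, *Rps3a3*, *Rps4l*, *Rps12l1*, *Rpl6l* and *Rpl32l* have symbols of this form but are annotated as pseudogenes and were left out. *Fau* and *Rack1*, which encode ribosomal proteins under other names, are given separately.

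The libraries are RNA-seq of tdTomato+ cells sorted by FACS (fluorescence-activated cell sorting) from embryonic mouse kidneys at about E12.75, 48 h after tamoxifen was first given. Both genotypes carried the Eya1CreER allele, a tamoxifen-activated Cre driven from the *Eya1* locus that marks *Eya1*-expressing cells and their descendants, and the R26-tdTomato reporter; Eya1cKO embryos carried floxed *Eya1* (Eya1fl/fl) in addition. There were 2 libraries per genotype, each from its own portion of 5000 cells sorted simultaneously out of combined cell suspensions, so *P* values may measure only the spread between portions of a pool. The labels give 6 kidneys per genotype from 4 females, and the methods describe the material as more kidneys, from more females. The comparison asks what loss of *Eya1*, a transcriptional coactivator needed to keep nephron progenitors, did to gene expression in these cells.

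Most ribosomal proteins are needed in equal numbers, and their messenger RNAs are among the most abundant of growing cells. These mRNAs usually begin with a cytosine followed by an unbroken stretch of pyrimidines, the 5′ terminal oligopyrimidine (TOP) motif, through which mTOR signalling and the protein Larp1 adjust their translation. Much of the control of ribosomal protein output therefore acts on translation and protein turnover, which RNA-seq does not measure. Mutations of single ribosomal protein genes cause Diamond-Blackfan anaemia, and in mice reduced doses of *Rpl38* or *Rpl24* disturb patterning of the embryo.

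The sequences around the annotated starts of the members hold pyrimidine runs of different lengths. The windows printed here were chosen because they belong to members whose counts are described in detail or to a pair of paralogues. RefSeq promoter windows on GRCm38.p6 were at hand for 64 of the 84 members. Among the others are *Rpl3*, *Rpl7*, *Rpl8*, *Rpl21*, *Rpl23a*, *Rpl29*, *Rpl32*, *Rpl36* and *Rplp1*. Each printed window has 30 bases, 15 before the annotated start and 15 from it on, written 5′ to 3′ on the strand of the gene, and capitals mark its longest run of pyrimidines. The windows lie at chr11:68901551-68901580 (plus strand) for *Rpl26*, chr7:141447636-141447665 (plus) for *Rplp2*, chr9:64173372-64173401 (plus) for *Rpl4*, chr12:28635939-28635968 (minus) for *Rps7*, chr3:90213634-90213663 (minus) for *Rps27* and chr9:66946071-66946100 (plus) for its paralogue *Rps27l*.
Rpl26: CTCgcggcaacttacagaaccggaagtcgc
Rplp2: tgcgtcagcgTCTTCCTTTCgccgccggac
Rpl4: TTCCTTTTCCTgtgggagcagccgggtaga
Rps7: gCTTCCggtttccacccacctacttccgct
Rps27: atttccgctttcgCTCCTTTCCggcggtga
Rps27l: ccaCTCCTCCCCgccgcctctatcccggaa

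Among these, the run spans the start annotated by RefSeq in *Rplp2* and *Rps27*, while the longest run of *Rpl26* in this window has 3 bases. The starts in GENCODE can differ. The *Rpl26* window ends before the GENCODE start of the gene, and the run of *Rpl4* covers its GENCODE start. Where transcripts begin in these cells was not tested, so the windows do not show which mRNAs carry the motif. A run of 7 or more pyrimidines lay within the 30 bases in 34 of the 64 members (53.1%), against 21.3% of all 27025 genes with a window and 15.9% of 69 mitochondrial ribosomal protein genes. The letters TTCCG, the core recognised by ETS transcription factors, were searched on both strands and can overlap the pyrimidine run. They occurred in the whole window of 250 bases before and 50 from the start in 57 of the 64 members (89.1%), in 32.7% of all genes and in 78.3% of the mitochondrial ribosomal protein genes. Genes with more than 1 annotated start were counted when any of their windows held the letters, and a match describes the sequence and does not show binding.

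Counting gave 35411905 and 37999342 reads on genes in the controls and 22239293 and 17457452 in Eya1cKO. The targeted gene fell: *Eya1* was at 189 and 171 CPM (counts scaled to a common library total, on totals scaled by edgeR's TMM factors) in the controls and at 16.7 and 12.5 CPM in Eya1cKO, a log2 fold change of -3.60 (SE 0.18, adjusted *P* = 0.0002 by the quasi-likelihood method of edgeR). Reads on no gene made up 13.9% and 12.9% of all reads in the controls and 22.7% and 20.9% in Eya1cKO, and unaligned reads 6.32% and 6.69% against 12.9% and 12.7%. Markers of other cell types moved strongly with genotype. All 8 nephron progenitor markers were called lower (summed 1926 and 1916 CPM in the controls, 408 and 364 CPM in Eya1cKO), and all 5 ureteric bud markers were at lower values in both Eya1cKO libraries than in both controls (summed 137 CPM in each control, 58.4 and 37.3 CPM in Eya1cKO), 2 of them called by edgeR and 3 by DESeq2. Called higher were all 6 podocyte markers, 4 of 6 renal stroma, all 7 endothelial, all 5 adrenal cortex (15.2 and 10.5 CPM against 646 and 630 CPM) and all 7 sympathoadrenal markers (5.18 and 8.44 CPM against 533 and 569 CPM). None of 4 leukocyte markers was called by edgeR or DESeq2 or had an unadjusted *P* under 0.05, and the 8 erythroid markers together reached at most 1.37 CPM in any library. The part of these differences in cell make-up in the values of the ribosomal protein genes was not tested. In these sorted bulk samples, fewer cells of a type and less RNA per cell cannot be told apart.

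The share of reads on ribosomal protein genes was slightly lower on average in Eya1cKO, and whether the genotypes overlapped depended on the denominator. Their summed share was 2.90% and 2.99% of gene counts in the controls and 2.84% and 2.91% in Eya1cKO, so the ranges overlapped by a narrow margin. The means were 2.95% ± 0.06 (SD, n = 2) and 2.87% ± 0.04, a difference of -0.08 percentage points (exact permutation test over the 4 libraries, 2-sided, *P* = 0.667; the smallest value this design can give is 0.333). The overlap was lost without the mitochondrially encoded genes (2.98% and 3.06% against 2.91% and 2.97%), without the 100 most abundant other genes (3.37% and 3.47% against 3.29% and 3.36%) and in sums scaled by TMM (29443 and 30391 CPM against 27968 and 28910 CPM). The exact permutation test gave *P* = 0.333 for the first 2 of these denominators. As a share of every read recorded, reads on no gene and unaligned reads included, the members took 1.96% and 2.04% in the controls and 1.53% and 1.62% in Eya1cKO (exact permutation *P* = 0.333), in libraries whose reads outside genes differed as given above.

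The shares of both subunits overlapped between genotypes when taken over all gene counts. Small subunit genes took 1.16% and 1.19% of gene counts in the controls and 1.16% and 1.14% in Eya1cKO, and large subunit genes 1.75% and 1.80% against 1.68% and 1.76%. Small subunit genes made up 39.8% of the members' reads in each control and 40.9% and 39.3% in Eya1cKO, the Eya1cKO values lying on either side of the controls (exact *P* = 1.0). The 17 other genes with a known 5′ TOP mRNA, mostly elongation factors and their partners, took 1.495% and 1.51% in the controls and 1.32% and 1.36% in Eya1cKO, with no overlap (exact *P* = 0.333).

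**Figure D1:**
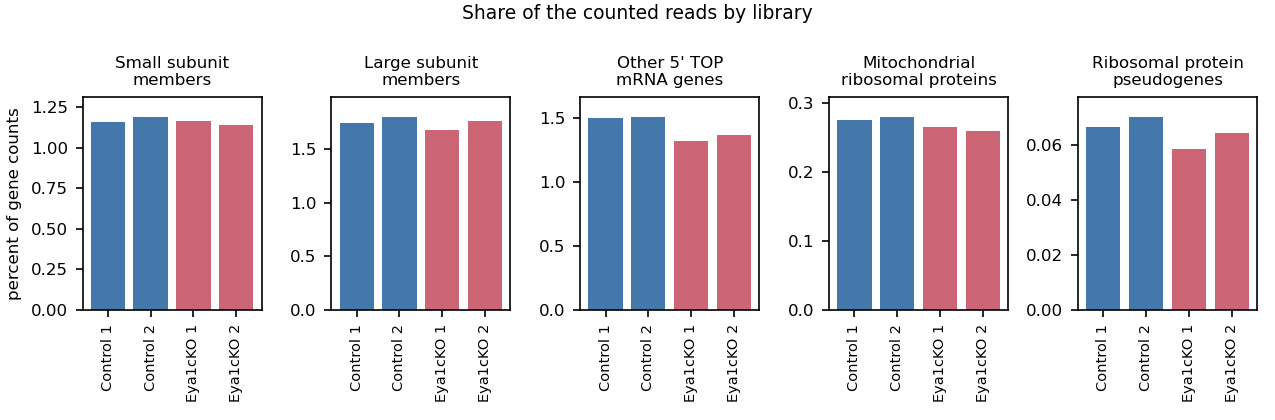
Share of the gene counts (vertical axes, percent, starting at 0 and scaled to each panel) in the 4 libraries for members of the small and the large subunit, other genes with a 5′ TOP mRNA, mitochondrial ribosomal protein genes and ribosomal protein pseudogenes; blue bars are control and red bars Eya1cKO libraries. Over this denominator the bars of each subunit overlap between genotypes, and those of the other 5′ TOP genes, the mitochondrial ribosomal protein genes and the pseudogenes are lower in both Eya1cKO libraries than in both controls.

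Of the 84 members, 81 passed edgeR's filter on low counts, 78 had at least 100 counts in every library and 74 at least 1000. With edgeR, 3 of the 81 (3.70%) were called at an adjusted *P* under 0.05, 2 lower and 1 higher in Eya1cKO and all of the large subunit, against 9.56% of the 19041 genes tested (4.41% lower, 5.15% higher). Strongly expressed genes are measured more precisely and are called more often: among genes with a mean of at least 100 CPM, 28.3% of 2617 were called (18.6% lower, 9.74% higher), and 3 of the 71 members at that level (4.23%). None of the 32 small subunit members was called by edgeR, 4 had an unadjusted *P* under 0.05, and DESeq2's Wald test called 3.

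The number called moved with the settings. All 3 calls were lost in the fit without control 1 or without control 2 (each of which called 23 genes in all), with the legacy quasi-likelihood method and with counts thinned to the smallest library, and without the low-count filter 2 of 83 members (2.41%) were called, against 3.38% of all genes. Leaving out Eya1cKO 1 gave 21 lower and 10 higher of 82 members (37.8%, against 33.5% of all genes), and leaving out Eya1cKO 2 gave 28 lower and 2 higher of 81 (37.0% against 35.3%), so the count of called members depends on which libraries enter.

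The fold changes of the members were small. Of the 81 tested, 65 (80.2%) had a log2 fold change smaller than 0.25 in either direction and 77 (95.1%) smaller than 0.5, whereas 49.4% and 78.3% of all genes at 100 CPM or more stayed within these sizes. At that level the SD of the log2 fold changes was 0.15 over the 71 members and 0.50 over the 2617 genes, with median standard errors of 0.09 and 0.11. The fold changes of 65 members had a 95% interval wholly within ±0.5, and those of 17 members within ±0.25. These intervals, and not the missing calls, give the sizes of change allowed by the spread between these libraries. As the libraries may be portions of a pool, the spread between embryos may not be in the intervals.

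The members' fold changes lay slightly below 0, as did those of abundant genes in general. The median log2 fold change was -0.09 over the 81 members, 0.02 over all genes tested and -0.11 over genes of at least 100 CPM. Values were negative for 60 members (74.1%) and positive for 21, and 62.6% of all genes of at least 100 CPM were negative. Both Eya1cKO libraries lay below both controls for 34 members (42%) and above both for 6 (7.41%), while 41 members overlapped. Libraries were apart for 49.4% of the members, against 55.3% of all genes tested (30% below and 25.3% above) and 72.3% of genes of at least 100 CPM (48.2% and 24.1%).

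**Figure D2:**
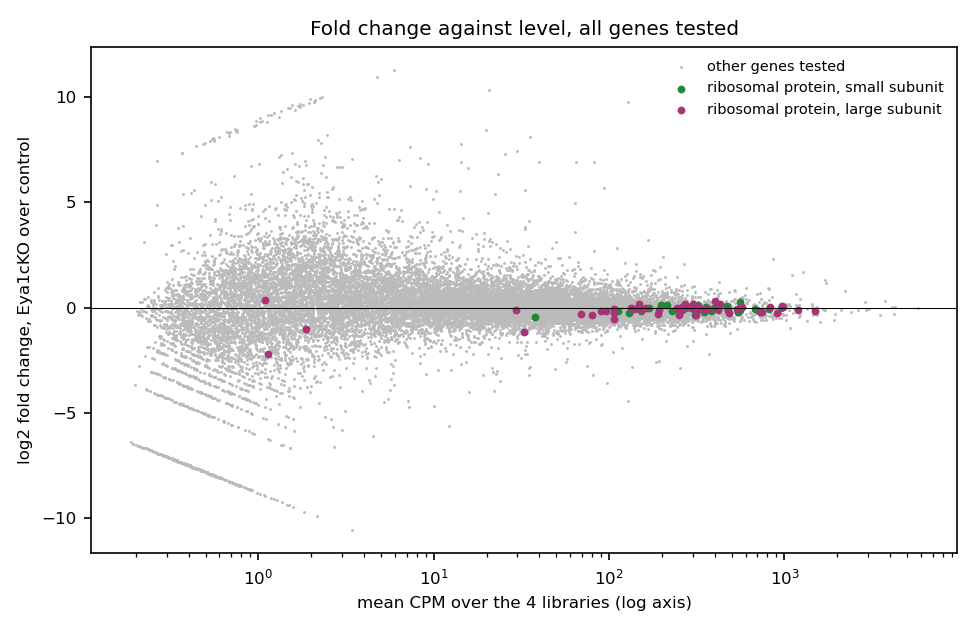
Log2 fold change of Eya1cKO over control (vertical axis) against the mean CPM over the 4 libraries (horizontal log axis) for all 19041 genes tested; grey points are other genes, green and purple points members of the small and the large subunit. The members form a narrow band near 0 at the right of the plot, with *Rpl23a*, *Rpl24* and *Rpl36al* at low counts on the left.

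**Figure D3:**
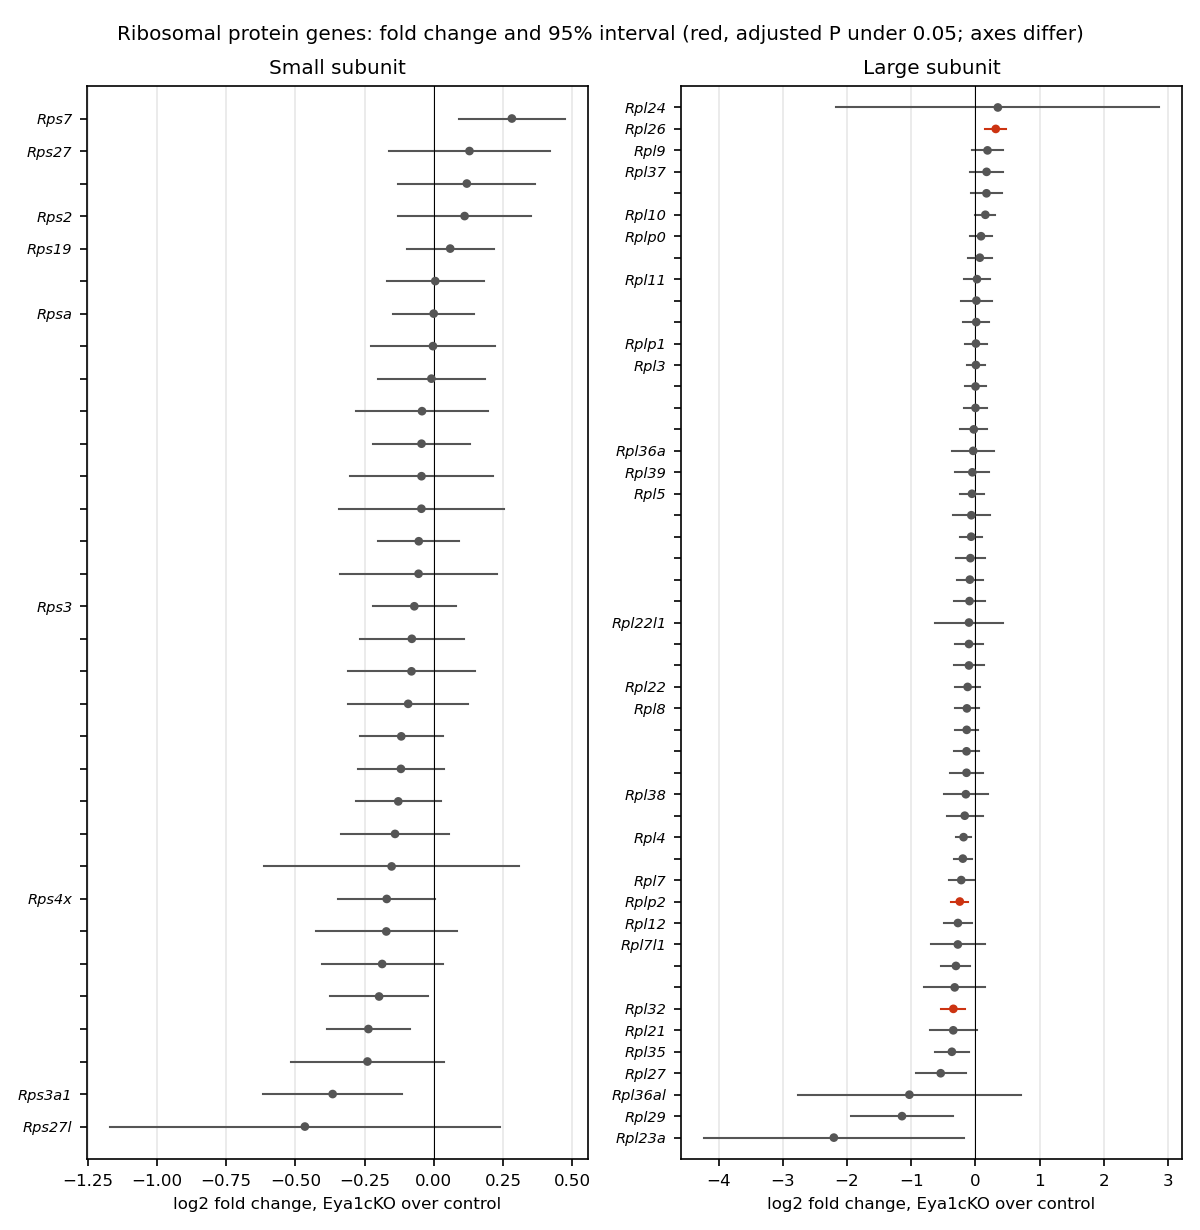
Log2 fold change of Eya1cKO over control with its 95% interval for the 32 small subunit (left) and 49 large subunit members tested (right), ordered by fold change, with the names of some members described in the text; red marks an adjusted *P* under 0.05 and the horizontal axes of the panels differ. Most intervals cross 0 and are narrow, and the widest belong to *Rpl24*, *Rpl23a* and *Rpl36al*.

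Of the 3 members called, *Rpl26* was the one that rose. Its protein sits at the rim of the tunnel through which the new peptide leaves the large subunit. *Rpl26* lies at chr11:68901583-68906989 (GRCm38, plus strand), was at 348 and 363 CPM in the controls and at 447 and 440 CPM in Eya1cKO, and rose by a log2 fold change of 0.32 (SE 0.07, edgeR adjusted *P* = 0.035). Both Eya1cKO libraries stood above both controls, and the replicates of each genotype lay close together. The gene shares 17.1% of its 75-base transcript windows with transcripts of other genes, and the pseudogene *Rpl26-ps4* was at 0.200 and 0.160 CPM in the controls and at 4.60 and 4.56 CPM in Eya1cKO (log2 fold change 4.64, adjusted *P* = 0.015), so both moved the same way. The pseudogene's level is low beside that of *Rpl26*, and the placing of reads between the copies was not tested.

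*Rplp2* encodes one of the acidic stalk proteins that draw elongation factors to the ribosome. It lies at chr7:141447370-141451585 (plus strand), and its level was 965 and 994 CPM in the controls against 836 and 821 CPM in Eya1cKO, without overlap. It fell by 0.24 on the log2 scale (SE 0.06, edgeR adjusted *P* = 0.041). *Rpl32*, which encodes another large subunit protein and lies at chr6:115805505-115808747 (minus strand), was at 338 and 363 CPM against 273 and 280 CPM and fell by 0.34 (SE 0.08, edgeR adjusted *P* = 0.043). Exons of another gene, *Cand2*, cover 5.50% of the exonic bases of *Rpl32* on the opposite strand, and exons of other genes cover 14.5% on the same strand.

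Several further members had separated libraries and an adjusted *P* just above the threshold. *Rpl4*, whose protein reaches into the exit tunnel and which was the member of most counts, was at 1590.4 and 1564 CPM in the controls and at 1382 and 1397 CPM in Eya1cKO (log2 fold change -0.18, SE 0.05, edgeR adjusted *P* = 0.061). *Rps3a1* was at 344 and 353 CPM against 298 and 241 CPM (-0.37, SE 0.11, adjusted *P* = 0.081), with 60.2% of its windows found in 7 other genes, all pseudogenes. *Rpl27* was at 119 and 135 CPM against 99.9 and 72.6 CPM (-0.54, SE 0.16, adjusted *P* = 0.089), the lowest fold change among members of at least 100 CPM. Without Eya1cKO 1 and without Eya1cKO 2 the log2 fold change was -0.54 and -0.24 for *Rps3a1* and -0.82 and -0.36 for *Rpl27*.

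In the other direction, *Rps7*, a small subunit gene mutated in Diamond-Blackfan anaemia, was at 489 and 516 CPM in the controls and 572 and 652 CPM in Eya1cKO (log2 fold change 0.28, SE 0.08, edgeR adjusted *P* = 0.079). The next in this direction were *Rpl10*, *Rpl9*, *Rpl17* and *Rpl37*, with log2 fold changes of 0.16, 0.19, 0.17 and 0.18 and adjusted *P* from 0.176 to 0.321 in the same test. Libraries of the genotypes did not overlap for *Rpl10*, *Rpl9* and *Rpl17*. Without Eya1cKO 2 the log2 fold changes of *Rpl9*, *Rpl17* and *Rpl37* were 0.038, 0.093 and 0.030, and without Eya1cKO 1 they were 0.31, 0.23 and 0.29. That of *Rps7* was 0.17 and 0.36 in the same fits. An unadjusted *P* under 0.05 in edgeR was found for 16 members, 14 with negative and 2 with positive fold changes, the latter being *Rpl26* and *Rps7*. The share of all genes at this unadjusted cutoff was not counted, here or for any other list or fit, so such counts have no background. Negative values were common among abundant genes, at 62.6% of those of at least 100 CPM.

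**Figure D4:**
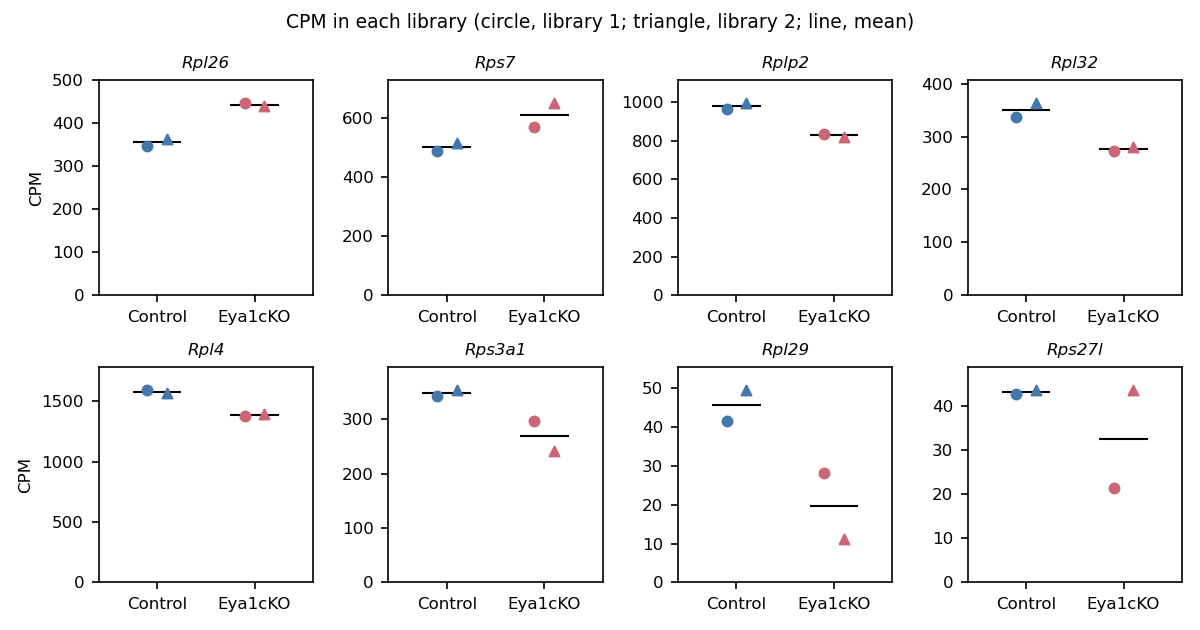
CPM (vertical axes, starting at 0 and scaled to each panel) of 8 members in each library; circles are library 1 and triangles library 2 of a genotype, blue control and red Eya1cKO, and the line is the mean of the 2 libraries. The genotypes separate for *Rpl26*, *Rps7*, *Rplp2*, *Rpl32*, *Rpl4*, *Rps3a1* and *Rpl29*, while of the Eya1cKO libraries of *Rps27l* 1 reaches the control level.

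Differences between the 2 Eya1cKO libraries exceeded those between the controls for many members. The median absolute log2 difference between libraries of one genotype was 0.06 in the controls and 0.14 in Eya1cKO. Genes in general also differed more between the Eya1cKO libraries. The chi-square per degree of freedom was 49.7 between these (18446 genes) and 9.68 between the controls (20120 genes). *Rpl29*, whose protein is dispensable for life in mice, was at 41.7 and 49.5 CPM in the controls and at 28.2 and 11.2 CPM in Eya1cKO. Its log2 fold change of -1.14 (SE 0.34, edgeR adjusted *P* = 0.084) was the lowest among members with at least 100 counts in every library. Its Eya1cKO libraries differed from each other by -1.33 on the log2 scale and its controls by 0.25, with no overlap between the genotypes. The log2 fold change was -2.03 without Eya1cKO 1 and -0.71 without Eya1cKO 2, so its size rests on which of these libraries is used.

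The ribosome's functional groups hold few genes each, so the share of members called says little about a group. Of the 4 stalk genes edgeR called 1, beside 9.56% of all genes tested and 3.70% of the members. Among the stalk proteins *Rplp2* fell, whereas *Rplp1* was at 954 and 1003 CPM against 928 and 1044 CPM and *Rplp0*, the stalk's base, at 929 and 953 CPM against 935 and 1069.7 CPM. The last protein at this base, encoded by *Rpl12*, was at 513 and 543 CPM against 404 and 475 CPM (log2 fold change -0.27, SE 0.09, edgeR adjusted *P* = 0.108), and its log2 fold change was -0.17 without Eya1cKO 1 and -0.40 without Eya1cKO 2. So the stalk's 4 genes had fold changes of both signs.

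*Rpl5* and *Rpl11*, whose proteins bind 5S ribosomal RNA and can hold back Mdm2, the inhibitor of p53, differed little. *Rpl5* was at 526 and 571 CPM in the controls and 506 and 554 CPM in Eya1cKO, and *Rpl11* at 299 CPM in each control and 286 and 325 CPM in Eya1cKO. Their log2 fold changes were -0.05 (SE 0.08) and 0.03 (SE 0.09), with overlapping libraries for both genes and no call by edgeR or DESeq2.

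Of the 6 proteins around the exit tunnel, *Rpl26* alone was called by edgeR, and the *Rpl35* value was -0.37 (SE 0.11, edgeR adjusted *P* = 0.091; -0.22 without Eya1cKO 1 and -0.53 without Eya1cKO 2). None of the 10 Diamond-Blackfan anaemia genes listed was called by edgeR (beside 3.70% of the members and 9.56% of all genes tested), 1 (*Rps7*) had an unadjusted *P* under 0.05 and was called by DESeq2, and their median log2 fold change was -0.05. The list is not complete: *Rpl26*, which rose, and *Rpl27* and *Rpl35*, which edgeR did not call while DESeq2 called *Rpl27* lower, are also mutated in the disease. Neither *Rps3* nor *Rps2*, which line the mRNA entry, was called by either tool, with values of -0.07 and 0.11. *Rpsa*, mutated in people born without a spleen, had the value nearest 0 of those with small errors: 947 and 963 CPM against 917 and 995 CPM, with a 95% interval from -0.15 to 0.15.

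*Rpl38* was at 97.9 and 102.5 CPM in the controls and at 80.4 and 102.4 CPM in Eya1cKO (log2 fold change -0.15, SE 0.14), a difference within the spread of its libraries, and 0.02 without Eya1cKO 1 and -0.33 without Eya1cKO 2. *Rps19*, the gene most often mutated in Diamond-Blackfan anaemia, was at 454 and 466 CPM against 471 and 488 CPM (0.06, SE 0.07). *Rpl35*, *Rps3*, *Rps2*, *Rpl38*, *Rps19* and *Rpl27* were chosen for mention after their values were seen.

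Levels of the members, per kilobase of transcript, spread widely around a high centre. Of the 100 genes with the highest mean CPM per kilobase, 41 were members. The median of the tested members was 363 CPM per kilobase and the quartiles were 195 and 508. The highest were *Rplp1* at 1969, *Rpl8* at 1168 and *Rpl4* at 965 CPM per kilobase. Among members with at least 10 counts in every library, *Rpl36al*, *Rpl7l1* and *Rpl21* were lowest, at 1.47, 41.1 and 42.8 CPM per kilobase. The order of the 81 levels was nearly the same in the genotypes (Spearman's rho between mean levels 0.99 across genes, which are not independent and share the libraries).

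A low level need not mean little mRNA, because ribosomal protein genes have many processed pseudogenes and reads aligned to more than 1 place were recorded apart from the gene counts (from 7.95% to 9.06% of reads). A median of 15.3% of a member's 75-base transcript windows occurred in transcripts of genes elsewhere, 80 of the 84 members shared at least 1 window, and 79 shared with a pseudogene. *Rpl36*, *Rps3a1* and *Rpl19* shared the most, 70.9%, 60.2% and 50.1%. Across the 81 members tested, the level per kilobase and the share of windows were nearly unrelated (Spearman's rho 0.05), and rho between the log2 fold change and that share was 0.26, both given as descriptions. Transcripts of GENCODE M21 were searched, and copies outside them were not analysed here.

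*Rpl24* and *Rpl23a*, which encode general components of the large subunit, had very few reads. *Rpl24* had 22 and 43 reads in the controls and 5 and 41 in Eya1cKO (log2 fold change 0.35, SE 1.08). Exons of another gene on the same strand cover 47.0% of its exonic bases, and 47.7% of its windows recur elsewhere. *Rpl23a* had 80 and 54 reads against 10 and 6 (log2 fold change -2.20, SE 0.89, edgeR adjusted *P* = 0.145), with 47.6% of windows shared and 59.7% of its exonic bases covered by *Tlcd1* on the opposite strand. Whether reads of these genes were set aside as shared or ambiguous was not tested, and the strand setting of the counting is not stated, so their counts are uncertain.

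Overlap with other genes was common among the members: 28 shared exonic bases with a gene on the same strand and 19 with one on the opposite strand. In addition, 30 members hold 58 small nucleolar RNA genes in their introns, which guide modification of ribosomal RNA. The hosts had a median log2 fold change of -0.10 and the 51 other members tested -0.08. Members of both sorts are included in all counts above.

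The paralogues were expressed far below their partners, or not detected. Calculated per length from the counts, *Rpl22l1* made up 19.8% and 21.6% of the reads of its pair with *Rpl22* in the controls and 23.4% and 18.3% in Eya1cKO, which overlapped (exact *P* = 1.0). *Rpl7l1* made up 5.99% and 6.18% of its pair with *Rpl7* in the controls and 5.25% and 6.56% in Eya1cKO (exact *P* = 1.0). In both pairs the Eya1cKO libraries lay on either side of the controls.

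*Rps27l*, a p53-inducible paralogue of *Rps27*, made up 14.1% and 13.3% of its pair in the controls and 7.39% and 11.5% in Eya1cKO. The genotypes did not overlap, at the smallest *P* the exact test can give (0.333). Its own counts overlapped, at 42.7 and 43.5 CPM in the controls and 21.3 and 43.5 CPM in Eya1cKO (log2 fold change -0.47, SE 0.30, edgeR adjusted *P* = 0.346), and *Rps27* was at 181 and 196 CPM against 185 and 231 CPM. Without Eya1cKO 1 the log2 fold change of *Rps27l* was 0.0020, so its negative value rests on that library.

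*Rpl36al* made up 0.538% and 0.626% of its pair with *Rpl36a* in the controls and 0.396% and 0.199% in Eya1cKO (exact *P* = 0.333), from 81, 103, 33 and 17 reads. Of the paralogues known for restricted tissues, *Rpl10l* of testis had 12 reads in control 1 and none elsewhere, and *Rpl3l* of heart and skeletal muscle had 89 reads in Eya1cKO 2 and none elsewhere. *Rpl39l* had no read in any library, which allows up to 0.0859 and 0.0801 CPM in the controls and 0.133 and 0.171 CPM in Eya1cKO at 3 counts, counting error only. These 3 genes did not pass the filter on low counts in the fit of all 4 libraries and were not tested there. With a library left out *Rpl3l* passed it in 3 fits, and without Eya1cKO 1 it was called higher by edgeR from the reads of Eya1cKO 2 alone. *Rps4l*, an annotated pseudogene related to *Rps4x*, was at 41.6 and 42.04 CPM against 52.7 and 42.9 CPM, and *Rps4x* at 414 and 396 CPM against 370 and 349 CPM.

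Members that lie on the X chromosome, *Rpl10*, *Rpl36a*, *Rpl39* and *Rps4x*, had log2 fold changes of 0.16, -0.03, -0.05 and -0.17, none of them called by edgeR or DESeq2. The sex of the embryos is not given by the labels, and the translation factor pair *Eif2s3y* on the Y chromosome (27.7 and 25.7 CPM against 57.3 and 56.6 CPM) and *Eif2s3x* (102 and 108 CPM against 72.3 and 65.9 CPM) moved in opposite directions. The part of sex in the members' values was not tested.

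The ribosomal protein genes *Rack1* and *Fau*, outside the naming rule, were called by neither tool and had no unadjusted *P* under 0.05. *Rack1*, a scaffold on the head of the small subunit, was at 1116 and 1184 CPM in the controls and 1074 and 1137 CPM in Eya1cKO, and *Fau* at 295 and 314 CPM against 335 and 301 CPM.

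Genes of translation initiation and other 5′ TOP genes were mostly lower where called. Of 53 initiation factor genes tested, 14 fell and 1 rose (28.3% called, beside 28.3% of all genes of at least 100 CPM), with a median log2 fold change of -0.21. *Eif5a* was at 624 and 628 CPM in the controls and 393 and 404 CPM in Eya1cKO (log2 fold change -0.65, SE 0.06, edgeR adjusted *P* = 0.0025). *Eif4g1*, the scaffold of the cap-binding complex, was at 1362 and 1418 CPM against 1026 and 1012 CPM (-0.45, SE 0.05, adjusted *P* = 0.0047). The initiation factor list holds genes under 100 CPM as well. These lists were set beside the members for reference, and the difference between lists was not tested.

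Among the 17 other genes with a 5′ TOP mRNA, 5 were called lower and none higher (29.4%, beside 28.3% of all genes of at least 100 CPM, of which 18.6% lower and 9.74% higher), with a median log2 fold change of -0.26; 5 of the 17 are also in the initiation factor list. *Npm1*, a nucleolar chaperone, was at 1222 and 1241 CPM in the controls and 790 and 817 CPM in Eya1cKO (log2 fold change -0.62, SE 0.05, edgeR adjusted *P* = 0.0017). *Hnrnpa1*, an RNA-binding protein of splicing, was at 859 and 833 CPM against 591 and 635 CPM (-0.47, SE 0.06, adjusted *P* = 0.0077). The elongation factor genes *Eef1a1* and *Eef2*, the most abundant of this list, had values of -0.07 and -0.13 and were not called by edgeR; they were chosen for mention after their values were seen.

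Of 9 regulators of 5′ TOP translation tested, 8 had negative fold changes and 2 were called lower (22.2%, beside 9.56% of all genes tested and 28.3% of those of at least 100 CPM), with a median log2 fold change of -0.17. *Larp1*, which binds the capped TOP motif, was at 430 and 424 CPM in the controls and 309 and 321 CPM in Eya1cKO (log2 fold change -0.44, SE 0.07, edgeR adjusted *P* = 0.014). *Eif4ebp2*, a repressor of cap-dependent initiation that mTOR inactivates, was at 235 and 242 CPM against 176 and 191 CPM (-0.38, SE 0.09, adjusted *P* = 0.044).

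Of 6 tested chaperones dedicated to single ribosomal proteins, 2 were called lower (33.3%, beside 9.56% of all genes tested), and the fold changes of the list had both signs, 4 negative and 2 positive. Both Eya1cKO libraries lay below both controls for 3 of them and above both for 2, where 30% of all genes tested lay below and 25.3% above. *Bccip*, which accompanies the large subunit protein Rpl23, was at 78.5 and 73.2 CPM in the controls and 40.0 and 44.7 CPM in Eya1cKO (log2 fold change -0.85, SE 0.16, edgeR adjusted *P* = 0.021). *Grwd1*, the chaperone of Rpl3, was at 48.2 and 46.9 CPM against 21.6 and 27.5 CPM (-0.97, SE 0.21, adjusted *P* = 0.034). Their client genes were not called: *Rpl3* was at 803 and 836 CPM against 829 and 820.2 CPM and *Rpl23* at 414 and 417 CPM against 436 and 395 CPM, the latter chosen for mention as a client.

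Of 76 mitochondrial ribosomal protein genes tested, edgeR called none at 0.05 (beside 9.56% of all genes tested) and DESeq2 none (beside 14.4%), 11 had an unadjusted *P* under 0.05, and their median log2 fold change was -0.14. The smallest *P* values were those of *Mrps22* (-0.70, SE 0.20, adjusted *P* = 0.078) and *Mrpl32* (-0.97, SE 0.29, adjusted *P* = 0.083). They were counted at far lower levels than the members, their summed level being 2801 and 2847 CPM in the controls against 29443 and 30391 CPM for the 84 members. Of the 282 ribosomal protein pseudogenes in the files, 111 were tested and 3 called (2.70%, beside 9.56% of all genes tested), 2 lower and 1 higher; *Rps15a-ps8*, at 8.39 and 9.29 CPM against 0.133 and 0.114 CPM, was the strongest of those lower.

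**Figure D5:**
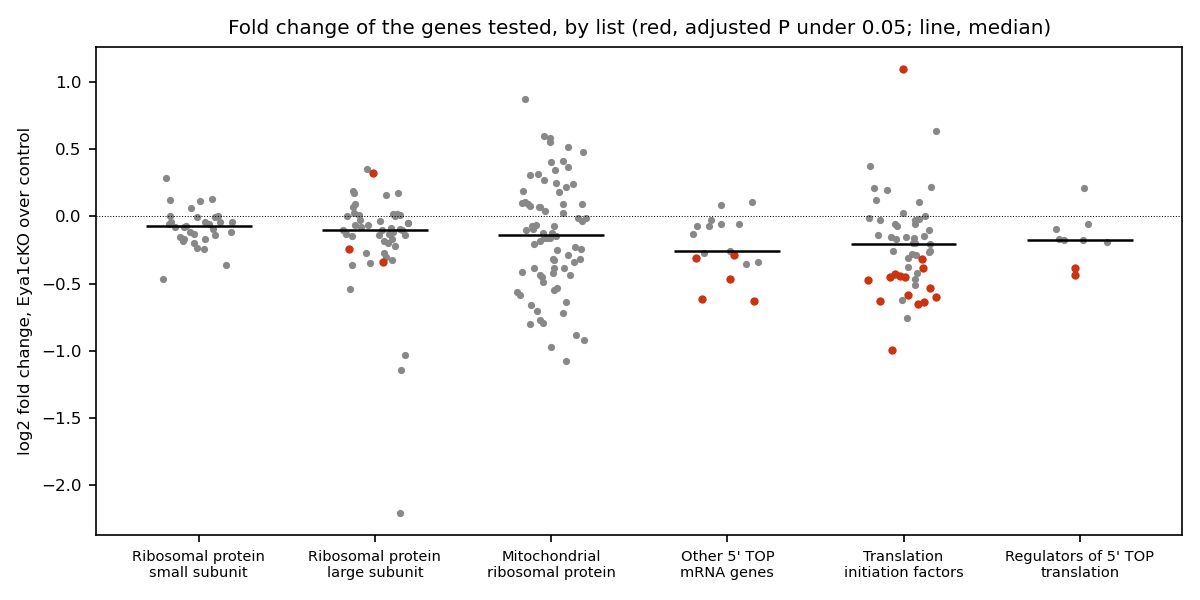
Log2 fold change of Eya1cKO over control (vertical axis) for each gene tested of the ribosomal protein small and large subunits, the mitochondrial ribosomal proteins, other genes with a 5′ TOP mRNA, translation initiation factors and regulators of 5′ TOP translation; red points have an adjusted *P* under 0.05 and the line is the median of each list. Of the members 3 points are red, against 5 of 17 for the other 5′ TOP genes and 15 of 53 for the initiation factors.

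Most members have short transcripts, with a median of 887 bases against 3044 over the protein-coding genes tested. Among other genes of at least 100 CPM with a transcript under 1000 bases, 10 of 43 (23.3%) were called, and of those from 1000 to 3000 bases 221 of 721 (30.7%). Of the members at the same level with a transcript under 1000 bases 3 of 44 (6.82%) were called, and of the 27 with longer transcripts edgeR called none, with 5 at an unadjusted *P* under 0.05 and 2 called by DESeq2. Length was taken from the principal transcript of each gene, and the difference between these shares was not tested.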

How the data were processed

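RNA-seq of FACS-sorted tdTomato+ kidney cells was compared between 2 control and 2 Eya1cKO libraries. The authors prepared random-primed, strand-specific libraries, sequenced them from one end with 75-base reads, aligned these to mm10 with HISAT2 and counted them with HTSeq on Ensembl release 90; the deposited values are counts per gene without normalization. The strand setting of the counting and any trimming are not given in the sources used here. Genes were kept with filterByExpr (minimum count 10) in edgeR 4.0.16 (R 4.3.3), scaled by TMM and tested for genotype with glmQLFit and glmQLFTest (legacy = FALSE), with Benjamini-Hochberg adjustment over all 19041 genes at 0.05 and no covariate. The size of a log2 fold change divided by the root of its F statistic gave its standard error, and intervals are 95%.

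Members and gene lists were chosen with earlier results of these data known. Named are the stalk, 5S particle and paralogue genes, ribosomal proteins outside the rule, the 6 members of smallest *P* in each direction, the 5 of largest and of smallest standard error, every member called, the 3 highest and lowest per length, members that were not tested, *Eya1*, and up to 2 genes of each other list; some of these appear only in counts or are not reported here. Coordinates, overlaps and principal transcript lengths are from GENCODE M21 on the same build (GRCm38), later than the release counted on, and promoter windows are from RefSeq (GRCm38.p6). The scripts were tested on simulated data. DESeq2 1.42.0, other scalings, filters, quasi-likelihood settings, thinning, leaving out each library and a replicate block were tried as alternatives.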

Additional observations from a re-analysis of the deposited data

How the results depend on the processing

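The count of members called, 3 in the reported fit, was 1 with library totals alone (9.34% of all genes called), 7 with at least 10 counts in every library (6 lower, 1 higher; 8.86% of 79, against 15.5% of all genes), 10 with the DESeq2 Wald test (8 lower, 2 higher; 12.3%, against 14.4%), and 0 with edgeR's legacy method and with thinning (15 and 16 members at an unadjusted *P* under 0.05; 5.76% and 6.23% of all genes called). Leaving out a library gave from 0 to 31 (the 31 include *Rpl3l*, with reads in 1 library), with the lone library of a genotype assumed to vary like the others and from 0.108% to 35.3% of all genes called, and the 0 of the fits without a control stand beside 6 and 3 members at an unadjusted *P* under 0.05; 14 members were called the same way without Eya1cKO 1 and without Eya1cKO 2, 12 of them lower. For the 14 members, the matching share of all genes was not counted, so this count has no background. The fits without Eya1cKO 1 and without Eya1cKO 2 also share both controls. The cause of the shifts in the count of called members was not tested. *Rpl26* and *Rpl32* also lost their calls without the filter, and *Rpl32* and *Rplp2* with library totals; none of the 3 changed sign in any fit. The median log2 fold change was -0.048 with library totals and ranged from -0.14 to -0.057 with a library left out.

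Libraries of the same number did not deviate together (correlation 0.0062 over 19041 genes), so the numbers pair nothing; with the replicate block edgeR called 0 members (15 at an unadjusted *P* under 0.05) and 621 genes in place of 1820, and the median was -0.09.

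Values near 0 turned sign without being called. *Rpsa* was 0.010 with DESeq2's size factors, 0.037 with library totals, 0.011 with DESeq2, 0.00067 with the legacy method and 0.00038 with thinning. *Rpl3* was -0.0073 and *Rplp1* -0.0065 without a filter, and -0.0039 and -0.0038 with at least 10 counts in every library; *Rpl36a* was 0.0043 with library totals. With a library left out, the ranges that crossed 0 were -0.030 to 0.12 (*Fau*), -0.080 to 0.11 (*Rpl11*), -2.02 to 1.36 (*Rpl24*), -0.041 to 0.022 (*Rpl3*), -0.25 to 0.16 (*Rpl36a*), -0.16 to 0.021 (*Rpl39*), -0.13 to 0.0033 (*Rpl5*), -0.025 to 0.17 (*Rplp0*), -0.093 to 0.083 (*Rplp1*), -0.048 to 0.28 (*Rps27*), -1.03 to 0.0020 (*Rps27l*) and -0.075 to 0.047 (*Rpsa*).

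Of 2 libraries a genotype, none can be tested as standing apart. The share of counts kept its direction under all 3 other denominators, but the genotypes, which overlapped over all gene counts (exact permutation *P* = 0.667), no longer did under any of them (exact permutation *P* = 0.333 each). Restricting members by windows recurring in the genome was not run, as no genome sequence was used here; the restriction by transcript windows and that to 100 counts in every library were added after seeing the data.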
